A study of Mus musculus with 8 samples.

Results

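The cyclin-dependent kinase inhibitors and the pocket proteins, the brakes on entry into S phase, were followed across RNA-seq libraries of mouse embryonic stem cells. The 10 genes were chosen by symbol: the Cip/Kip inhibitors Cdkn1a, Cdkn1b and Cdkn1c, the Ink4 inhibitors Cdkn2a, Cdkn2b, Cdkn2c and Cdkn2d, and the pocket proteins Rb1, Rbl1 and Rbl2. They are 10 of 49641 entries in the expression table, and all 10 were among the 12786 genes whose mean level over the 8 libraries reached 1 FPKM (a fragment count divided by transcript length and library size) and which were tested. A short second entry with the symbol Rb1 was not tested and is left out of the gene counts.

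The libraries fall into 4 groups of 2. The first holds Dgcr8 KO cells transfected with siMbnl1/2, by its name siRNA against Mbnl1 and Mbnl2, which encode muscleblind RNA-binding proteins that act on splicing. The second holds Dgcr8 KO cells transfected with miR-294, a microRNA. The third holds Dgcr8 KO control cells, which lack the Microprocessor subunit needed to make most microRNAs, and the fourth holds WT control cells. Per the labels, transfections used 50 nM of mimic or siRNA, 16 h after plating. All cells carry the labels 129/C57BL/6 and V6.5, but the table names the KO control libraries ES1-mock and the WT libraries V65-mock, so a shared parental line was not established, and no label says how many KO clones were used. By those names both controls were mock-treated, and a non-targeting mimic or siRNA was not analysed here. The medium held serum and LIF, and the cells grew on gelatin or on irradiated feeder fibroblasts, without a statement of which library grew on which. Nothing in the labels says that the replicates were separate cultures, so p-values measure the spread between these libraries, which may be technical.

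As background, cyclin D with Cdk4 or Cdk6, and then cyclin E with Cdk2, phosphorylate the pocket proteins, which releases E2F factors and lets S-phase genes be transcribed. Ink4 proteins bind Cdk4 and Cdk6, and Cip/Kip proteins bind whole cyclin-kinase complexes. Mouse embryonic stem cells are known for a short G1 phase, high cyclin E activity and low levels of these inhibitors. Dgcr8-null embryonic stem cells are known to accumulate in G1, and microRNAs of the miR-290 family, miR-294 among them, are known to relieve this and to act on Cdkn1a and Rbl2 among other transcripts.

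The seed of a microRNA, its bases 2 to 8 from the 5′ end, pairs with target transcripts. The mature sequences are shown because they set which letters were searched for in the member transcripts; capitals mark the seed. They come from RefSeq on GRCm38.p6, where mmu-miR-294-3p lies at chr7:3220691-3220712 on the plus strand. The labels do not say which arm of miR-294 the mimic carried, and the 3p arm, which has the family seed, is shown.
mmu-miR-294-3p: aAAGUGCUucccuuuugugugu
mmu-miR-291a-3p: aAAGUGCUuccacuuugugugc
mmu-miR-295-3p: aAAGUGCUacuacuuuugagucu
The 3 microRNAs of the miR-290 cluster share the seed, which mmu-miR-302b-3p and mmu-miR-302d-3p also hold.

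The letters that pair with the seed are AGCACTT in the transcript. They were searched on the sense strand in the 3′ UTR of 1 GENCODE M21 transcript per gene, and 16.2% of 11399 UTRs held them. The shorter GCACTT, which pairs with bases 2 to 7 and lies inside the longer one, was in 31.0%, and AGCACTTA, the longer one with an added A, was in 3.37%. Among the members, 3 of 10 held AGCACTT, namely Cdkn1a, Rbl1 and Rbl2, and Rb1 held the shorter match alone. The other 6 members held none. Each stretch with AGCACTT, and the 1 with GCACTT in Rb1, is printed from the mm10 transcripts, sense strand, with the match in capitals. They are shown because the values of these 4 genes are followed across the miR-294 libraries. The shorter matches in Cdkn1a and Rbl2 are not printed.
Cdkn1a, UTR base 435: gatcctcagacctgaatAGCACTTtgga
Cdkn1a, UTR base 1107: ataccgtgggtgtcaaAGCACTTAgtgg
Rbl2, UTR base 1384: gtgtatttttcaataaAGCACTTAtaaa
Rbl1, UTR base 22: accctttgcctgatcaaAGCACTTttgg
Rb1, UTR base 844: gtacagtacaacccaagtGCACTTttta
The Cdkn1a stretches lie in the last exon at chr17:29099811-29099838 and chr17:29100484-29100511 on the plus strand, and the Rbl2 stretch at chr8:91123814-91123841 on the plus strand. The Rbl1 stretch is at chr2:157147474-157147501 and the Rb1 stretch at chr14:73196358-73196385, both on the minus strand. Long UTRs hold such letters more often by length alone: among UTRs of the same or greater length, scanned over the same length, AGCACTT was in 15.8% for Cdkn1a, 16.5% for Rbl2, 18.4% for Rbl1 and 37.4% for Cdkn1b, whose UTR of 3439 bases held none. A match is a description of the letters and not a measured site. For Cdkn1a, 2 of 4 coding transcripts held AGCACTT, and for Rbl2 2 of 3, while the deposited levels are per gene.

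**Figure D1:**
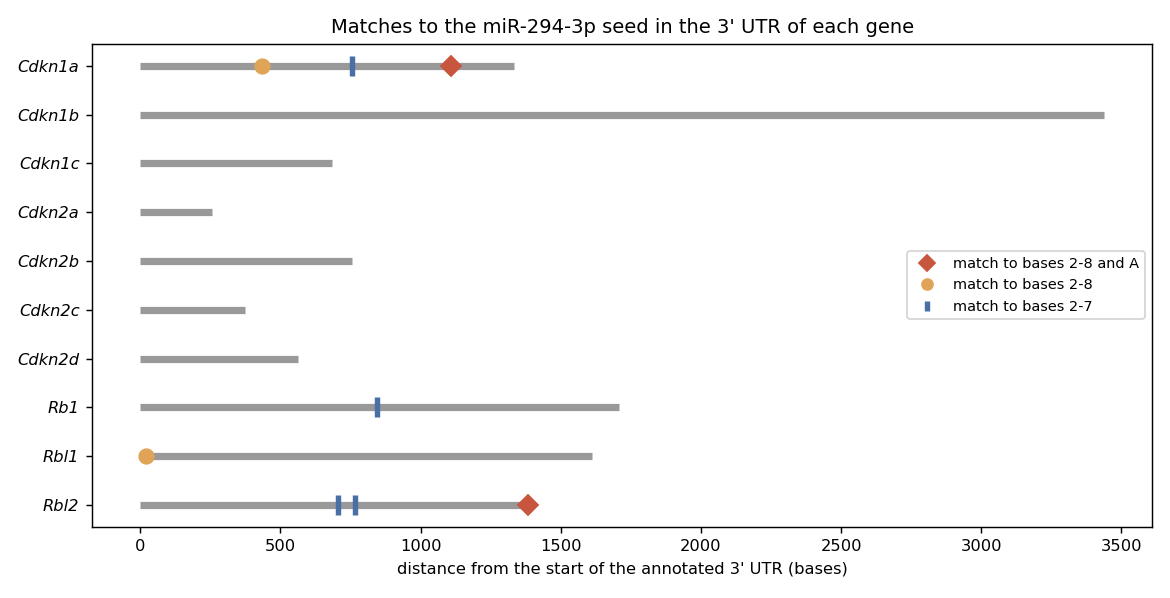
Each row is the 3′ UTR of 1 transcript of a member, drawn to scale as a grey bar in bases from the start of the annotated UTR, with symbols at matches to the miR-294 seed of the kinds named in the legend. Matches stand in Cdkn1a, Rb1, Rbl1 and Rbl2, and the longest UTR, of Cdkn1b, has none.

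Replicates had a Pearson r across tested genes of 0.971 for siMbnl1/2, 0.984 for miR-294, 0.973 for Dgcr8 KO and 0.987 for WT. Absolute depth cannot be read from FPKM; steps between low values gave relative depths of 1 to 1.29 across the 8 libraries. All 8 stem cell markers examined were at 1 FPKM or more in every group. Dgcr8 averaged 8.19 ± 0.432 FPKM in Dgcr8 KO and 22.4 ± 0.662 FPKM in WT (SD, n = 2 each); the reads were not resolved to the deleted part of the gene. Mbnl2 averaged 12.8 ± 2.23 FPKM with siMbnl1/2 and 26.6 ± 2.79 FPKM in Dgcr8 KO, a log2 difference of -1.01 with a limma adjusted p of 0.0191, and that call was lost in 7 of 15 alternative settings (adjusted p from 0.00298 to 0.137). Mbnl1 averaged 6.80 ± 0.0621 FPKM with siMbnl1/2 and 8.71 ± 1.00 FPKM in Dgcr8 KO, which did not pass (adjusted p = 0.158, limma). Below, a log2 difference is between group means of log2(FPKM + 1), its error is the limma standard error, its adjusted p is limma's with Benjamini-Hochberg correction over the 12786 genes, and a gene is called when that p is under 0.05. Adding 1 understates the change of low genes. All means are given ± SD with n = 2. The comparisons share libraries: siMbnl1/2 and miR-294 were both set against the same Dgcr8 KO libraries, which were also set against WT.

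In Dgcr8 KO against WT, 9 of 10 members were higher and Cdkn1c was lower. In miR-294 against Dgcr8 KO, the directions were turned: 9 members were lower and Cdkn1c was higher. In siMbnl1/2 against Dgcr8 KO, Cdkn1a alone among the members was called, as higher. These counts stand beside a broad background. In Dgcr8 KO against WT 59.8% of all tested genes were called, 29.6% as higher and 30.1% as lower. In miR-294 against Dgcr8 KO 52.2% were called, 22.9% as higher and 29.2% as lower (2934 and 3737 genes, against 3422 and 3418 with median-of-ratios scaling and 3279 and 3124 with quantile normalization), and in siMbnl1/2 against Dgcr8 KO 1.11%, with 0.868% as higher and 0.242% as lower. A difference of at least 1 on the log2 scale was less common. In Dgcr8 KO against WT, 4 members were called at that size as higher and 1 as lower, against 8.34% and 3.9% of all genes. In miR-294 against Dgcr8 KO, 5 members were called at that size as lower and 1 as higher, against 5.17% and 2.19%. The libraries of the groups did not overlap for all 10 members in either comparison, as for 81.8% of all tested genes in the first and 78.5% in the second. The median log2 difference of the members was 0.93 in Dgcr8 KO against WT, -1.01 in miR-294 against Dgcr8 KO and -0.02 in siMbnl1/2 against Dgcr8 KO, and that of all tested genes was 0.00, -0.06 and 0.04 in the same comparisons.

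**Figure D2:**
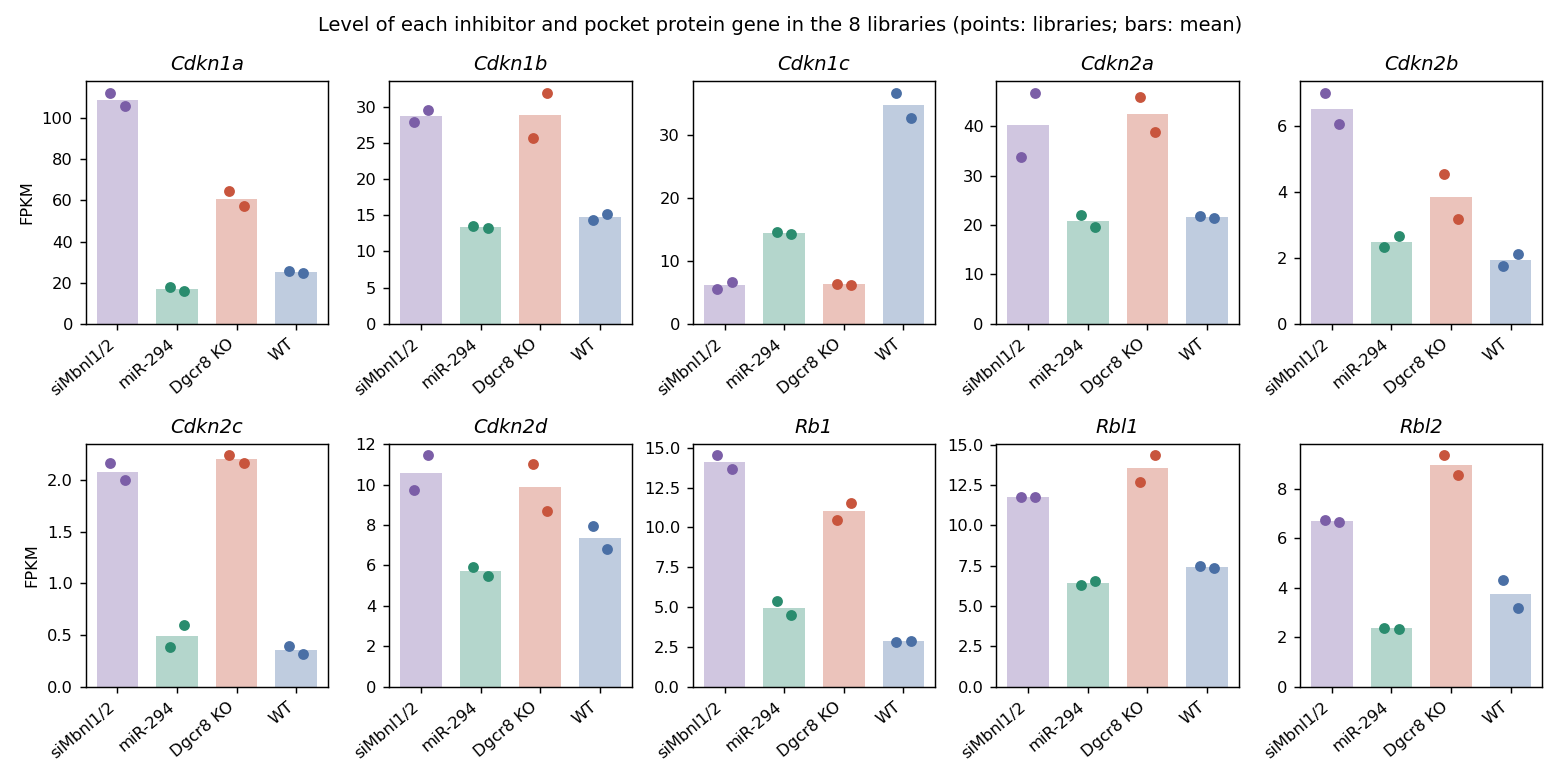
Points are the FPKM of each member in each library, 1 panel per gene with a linear axis of its own from 0, with siMbnl1/2, miR-294, Dgcr8 KO and WT from left to right, and bars give the group means. Cdkn1a ranges from 16.1 to 112 FPKM, and Cdkn1c is the member with its highest values in WT.

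Cdkn1a encodes p21, an inhibitor of Cdk2 complexes and a classical target of p53, and lies at chr17:29090979-29100722 (mm10). It had 112 and 106 FPKM with siMbnl1/2, 17.8 and 16.1 FPKM with miR-294, 64.4 and 57.1 FPKM in Dgcr8 KO, and 25.9 and 24.9 FPKM in WT. All 4 groups were apart, in the order siMbnl1/2, Dgcr8 KO, WT and miR-294, and each neighbour in that order was called different from the next. In Dgcr8 KO against WT it averaged 60.7 ± 5.16 FPKM and 25.4 ± 0.713 FPKM, a log2 difference of 1.22 ± 0.08 (adjusted p = 2.75e-05). With miR-294 it fell to 16.9 ± 1.17 FPKM, 0.279 times its Dgcr8 KO level (log2 difference -1.78 ± 0.08, adjusted p = 3.02e-05). On the log2(FPKM + 1) scale no other member fell further in this comparison, but as a ratio of means Cdkn2c (0.223) and Rbl2 (0.262) fell further, and with 0.1 added Cdkn2c stood at -1.99, Rbl2 at -1.88 and Cdkn1a at -1.83. Its level with miR-294 was also below WT, by a log2 difference of -0.56 ± 0.08 (adjusted p = 0.00359). Its UTR held 3 matches to GCACTT, 2 of them to AGCACTT as printed above. The UTR of Rbl2 also held 3 matches to GCACTT, 1 of them to AGCACTT.

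Cdkn1b encodes p27, which binds cyclin E and Cdk2 and is degraded through the Skp2 ligase at the start of S phase; it lies at chr6:134920401-134925513. Its values were 27.9 and 29.6 FPKM with siMbnl1/2, 13.5 and 13.3 FPKM with miR-294, 25.7 and 31.9 FPKM in Dgcr8 KO, and 14.3 and 15.2 FPKM in WT. The libraries formed a high pair of groups, siMbnl1/2 and Dgcr8 KO, which overlapped, and a low pair, miR-294 and WT. Dgcr8 KO was above WT by 0.92 ± 0.10 on the log2 scale (adjusted p = 2.32e-04), and miR-294 was below Dgcr8 KO, with a log2 difference of -1.04 ± 0.10 (adjusted p = 2.23e-04). Between miR-294 and WT the log2 difference was -0.13, with a 95% interval of -0.37 to 0.11. No match to the seed was found in the UTR of Cdkn1b.

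Cdkn1c encodes p57, an imprinted inhibitor known for its part in growth restraint and differentiation of embryonic and extraembryonic tissue, and lies at chr7:143458339-143461050. It had 5.51 and 6.67 FPKM with siMbnl1/2, 14.6 and 14.2 FPKM with miR-294, 6.35 and 6.12 FPKM in Dgcr8 KO, and 36.7 and 32.6 FPKM in WT. It ran against the other members, highest in WT and lowest, without a called difference between them, in Dgcr8 KO and siMbnl1/2. Dgcr8 KO averaged 6.24 ± 0.163 FPKM and WT 34.7 ± 2.85 FPKM, a log2 difference of -2.30 ± 0.10 (adjusted p = 5.63e-06), the greatest of any member on that scale. With miR-294 it averaged 14.4 ± 0.229 FPKM, 2.31 times Dgcr8 KO (log2 difference 1.09 ± 0.10, adjusted p = 1.75e-04) and still below WT (log2 difference -1.21 ± 0.10, adjusted p = 3.21e-04). Markers of primitive endoderm, an extraembryonic cell type that stem cell cultures can hold, also differed between groups. The summed level of 7 markers was 4.13 to 4.22 FPKM with siMbnl1/2, 4.24 to 4.48 FPKM with miR-294, 3.61 to 4.34 FPKM in Dgcr8 KO and 65.7 FPKM in both WT libraries. In WT all 7 were at 1 FPKM or more, against 1 of 7 in each other group; Dab2 averaged 23.3 FPKM in WT, against 0.322 FPKM in Dgcr8 KO. The part of these cells in the WT level of Cdkn1c was not tested. In bulk RNA, a change in the number of cells of a type and a change in RNA per cell cannot be told apart. Between miR-294 and Dgcr8 KO the 7 markers did not move together. Sox7 averaged 1.26 FPKM with miR-294 and 0.155 FPKM in Dgcr8 KO, and Gata6 0.759 FPKM with miR-294 and 0.155 FPKM in Dgcr8 KO. Dab2 averaged 0.749 FPKM with miR-294 and 0.322 FPKM in Dgcr8 KO, Sox17 0.245 FPKM with miR-294 and 0.119 FPKM in Dgcr8 KO, and Foxa2 0.138 FPKM with miR-294 and 0.0168 FPKM in Dgcr8 KO. Gata4 averaged 0.981 FPKM with miR-294 and 2.89 FPKM in Dgcr8 KO, and Pdgfra 0.222 FPKM with miR-294 and 0.314 FPKM in Dgcr8 KO, so that the sums were close although 5 of 7 markers had higher means with miR-294. Their part in the higher level of Cdkn1c with miR-294 was not tested. The summed level of 6 trophoblast markers was 8.09 to 10.7 FPKM with siMbnl1/2, 13.4 to 14.3 FPKM with miR-294, 6.46 to 6.90 FPKM in Dgcr8 KO and 8.46 to 9.35 FPKM in WT, with 4 of 6 at 1 FPKM or more in each group. It was thus also higher with miR-294 than in Dgcr8 KO, and its part in the level of Cdkn1c there was not tested.

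**Figure D3:**
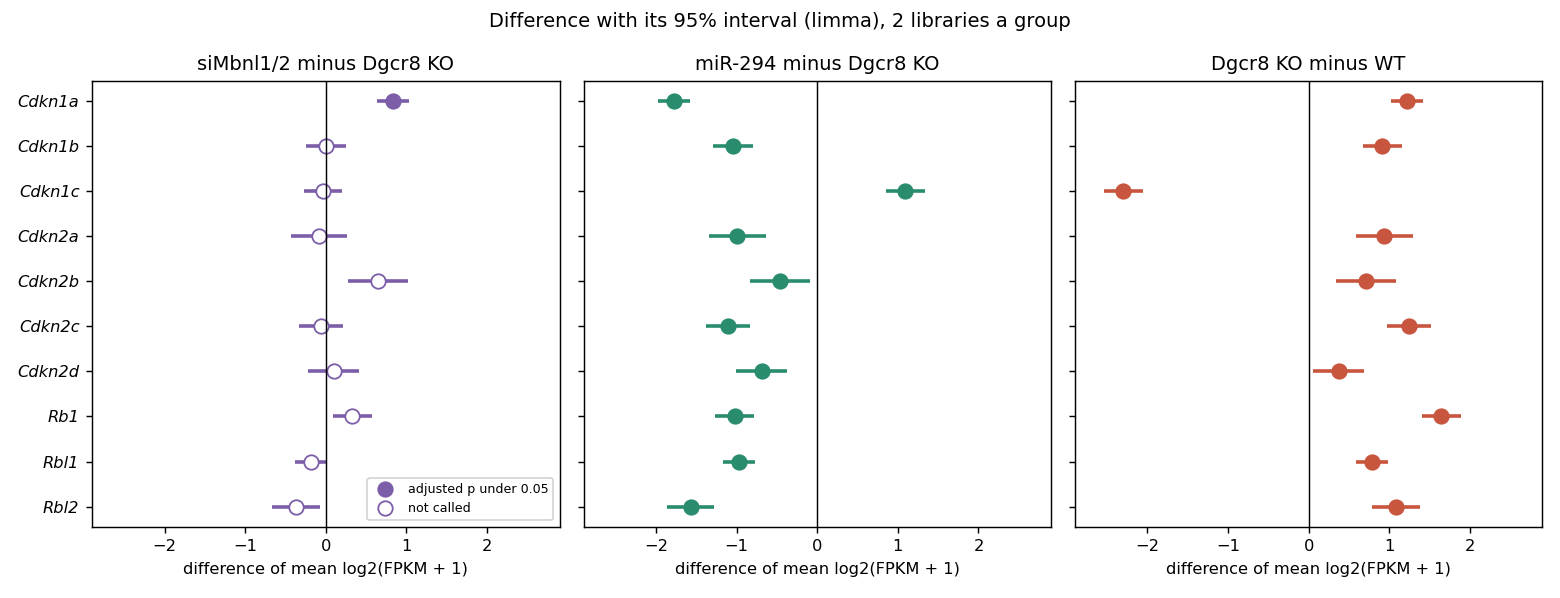
Points are log2 differences of log2(FPKM + 1) for each member with 95% intervals, in a panel for each of siMbnl1/2 minus Dgcr8 KO, miR-294 minus Dgcr8 KO and Dgcr8 KO minus WT; filled points are called. Cdkn1c stands opposite to the other members in the panels for miR-294 and for the knockout, and Cdkn1a is the one filled point in the panel for siMbnl1/2.

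Among the Ink4 genes, Cdkn2a had the highest level. The locus, at chr4:89274471-89294653, encodes both p16Ink4a and p19Arf, a stabiliser of p53 that is read in another frame, and a level per gene cannot tell them apart. Cdkn2a had 33.9 and 46.8 FPKM with siMbnl1/2, 22.0 and 19.7 FPKM with miR-294, 46.1 and 38.9 FPKM in Dgcr8 KO, and 21.8 and 21.4 FPKM in WT. Its pattern was that of Cdkn1b, a high pair of groups and a low pair, and the siMbnl1/2 libraries had the widest spread, with an SD of 9.17 FPKM. Dgcr8 KO averaged 42.5 ± 5.03 FPKM and WT 21.6 ± 0.249 FPKM (log2 difference 0.94 ± 0.15, adjusted p = 0.00124), and with miR-294 the level fell to 20.9 ± 1.63 FPKM (log2 difference -0.99 ± 0.15, adjusted p = 0.00134).

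Cdkn2b, the neighbour of Cdkn2a at chr4:89306289-89311032, encodes p15, an inhibitor known to be induced by TGF-beta. It had 7.02 and 6.05 FPKM with siMbnl1/2, 2.32 and 2.68 FPKM with miR-294, 4.55 and 3.17 FPKM in Dgcr8 KO, and 1.76 and 2.13 FPKM in WT. No groups overlapped, and siMbnl1/2 had the highest mean. Neither siMbnl1/2 against Dgcr8 KO (limma adjusted p = 0.0962) nor miR-294 against WT (limma adjusted p = 0.283) was called. Groups did not overlap for 38.7% and 76.7% of all tested genes in the same comparisons. Dgcr8 KO was called higher than WT (log2 difference 0.71 ± 0.16, adjusted p = 0.00607). The difference between miR-294 and Dgcr8 KO, -0.46 ± 0.16, had an adjusted p of 0.0424 and lost its call in 10 of 15 alternative settings, where the adjusted p ran from 0.0155 to 0.220. It was lost, among others, without Dgcr8 KO replicate 1, without either miR-294 library and without either WT library.

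Cdkn2c, which encodes p18 and lies at chr4:109660876-109667189, was the member with the lowest levels. It had 2.16 and 2.00 FPKM with siMbnl1/2, 0.384 and 0.601 FPKM with miR-294, 2.24 and 2.17 FPKM in Dgcr8 KO, and 0.391 and 0.313 FPKM in WT. Its mean over the 8 libraries was 1.28 FPKM, so it passed the filter of 1 FPKM only through siMbnl1/2 and Dgcr8 KO, where it was high. Dgcr8 KO was at 6.27 times the WT mean, a ratio that rests on WT values under 1 FPKM. On the log2(FPKM + 1) scale the difference was 1.25 ± 0.12 (adjusted p = 8.96e-05). Adding 0.1 in place of 1 moved this difference to 2.36. With miR-294 the level was 0.223 times that in Dgcr8 KO (log2 difference -1.11 ± 0.12, adjusted p = 2.68e-04), or -1.99 with 0.1 added.

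Cdkn2d encodes p19Ink4d, an Ink4 protein whose level is known to swing with the cell cycle, and lies at chr9:21288410-21291407. Its values were 9.72 and 11.4 FPKM with siMbnl1/2, 5.93 and 5.47 FPKM with miR-294, 11.01 and 8.71 FPKM in Dgcr8 KO, and 7.95 and 6.79 FPKM in WT. It varied least of the Ink4 genes in Dgcr8 KO against WT, with a log2 difference of 0.37 ± 0.14 (adjusted p = 0.0456). That call was lost in 10 of 15 alternative settings (adjusted p from 0.0224 to 0.238), without either WT library, either miR-294 library or Dgcr8 KO replicate 1 among them. With miR-294 it was called lower than in Dgcr8 KO (log2 difference -0.69 ± 0.14, adjusted p = 0.0042). None of the 4 Ink4 genes held a match to the seed in the UTR searched.

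Rb1 encodes the retinoblastoma protein, the pocket protein that binds the activating E2F factors, and lies at chr14:73183673-73325822. It had 14.5 and 13.7 FPKM with siMbnl1/2, 5.36 and 4.49 FPKM with miR-294, 10.5 and 11.6 FPKM in Dgcr8 KO, and 2.80 and 2.89 FPKM in WT. No groups overlapped, and WT was lowest, but siMbnl1/2 against Dgcr8 KO was not called (limma adjusted p = 0.154). Dgcr8 KO averaged 11.01 ± 0.780 FPKM, 3.87 times the WT mean of 2.84 ± 0.0576 FPKM (log2 difference 1.64 ± 0.10, adjusted p = 1.83e-05). That was the greatest rise on this scale among the members. With miR-294 it fell to 4.93 ± 0.616 FPKM (log2 difference -1.02 ± 0.10 against Dgcr8 KO, adjusted p = 2.33e-04). This level was still above WT, by 0.62 ± 0.10 on the log2 scale (adjusted p = 0.00508), and Rb1 was the only member called higher in miR-294 than in WT. Lpar6 lies inside Rb1 on the other strand, and whether the counting used strand is not given in the sources used here. Lpar6 averaged 3.14 ± 0.267 FPKM in Dgcr8 KO and 3.53 ± 0.0823 FPKM in WT.

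Rbl1 encodes p107, which binds the repressive E2F factors and is itself an E2F target; it lies at chr2:157145893-157204534. It had 11.7 and 11.8 FPKM with siMbnl1/2, 6.29 and 6.56 FPKM with miR-294, 12.7 and 14.3 FPKM in Dgcr8 KO, and 7.49 and 7.33 FPKM in WT. It was called higher in Dgcr8 KO than in WT (log2 difference 0.79 ± 0.09, adjusted p = 1.83e-04) and lower with miR-294 than in Dgcr8 KO (log2 difference -0.97 ± 0.09, adjusted p = 1.40e-04). Between miR-294 and WT the log2 difference was -0.18, with a 95% interval of -0.38 to 0.02.

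Rbl2 encodes p130, the pocket protein of resting cells and of the DREAM complex, and lies at chr8:91070057-91123844. It had 6.73 and 6.67 FPKM with siMbnl1/2, 2.36 and 2.34 FPKM with miR-294, 9.36 and 8.56 FPKM in Dgcr8 KO, and 4.30 and 3.17 FPKM in WT. All 4 groups were apart, with Dgcr8 KO highest and miR-294 lowest, but siMbnl1/2 against Dgcr8 KO was not called (limma adjusted p = 0.180). Dgcr8 KO was 2.40 times WT (log2 difference 1.08 ± 0.13, adjusted p = 2.56e-04), and with miR-294 the level was 0.262 times that in Dgcr8 KO (log2 difference -1.57 ± 0.13, adjusted p = 9.91e-05). With miR-294 it was also below WT (log2 difference -0.49 ± 0.13, adjusted p = 0.0271), but this call was lost in 4 of 15 alternative settings, with adjusted p from 0.0206 to 0.182. It was lost without either miR-294 library and without WT replicate 1.

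The members can be set beside the UTR letters without a test, since 10 genes were chosen by name. Cdkn1a and Rbl2, the only members with AGCACTTA, stood at -1.78 and -1.57 in miR-294 against Dgcr8 KO on the log2(FPKM + 1) scale. Rbl1, with AGCACTT, stood at -0.97, and Rb1, with GCACTT alone, at -1.02. The 5 members that were lower and held no match spanned -0.46 for Cdkn2b to -1.11 for Cdkn2c, so their range took in the values of Rbl1 and Rb1. Adding 0.1 in place of 1 bears most on the low levels of Cdkn2c. With it that gene was at -1.99, beyond Rbl2 at -1.88 and Cdkn1a at -1.83. A link between the UTR letters and the size of the difference was not tested.

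In miR-294 against WT, 3 members were called lower (Cdkn1a, Cdkn1c and Rbl2), 1 higher (Rb1) and 6 in neither direction, where 26.5% of all tested genes were called, 11.8% as higher and 14.7% as lower. The libraries of miR-294 and WT did not overlap for 8 members, as for 76.7% of all genes. The 95% intervals of the 6 ran from -0.63, the lower bound of Cdkn2d, to 0.62, the upper bound of Cdkn2b, on the log2 scale. The order of the 4 groups thus differed between members. Dgcr8 KO or siMbnl1/2 was highest in 9, with a called difference between that pair of groups for Cdkn1a alone. WT was above miR-294 in mean level for 7 of 10 members and below it for Cdkn2b, Cdkn2c and Rb1.

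With siMbnl1/2, 1 member was called different from Dgcr8 KO. Cdkn1a averaged 109 ± 4.76 FPKM with siMbnl1/2 and 60.7 ± 5.16 FPKM in Dgcr8 KO, 1.80 times as high (log2 difference 0.84 ± 0.08, 95% interval 0.64 to 1.03, adjusted p = 0.0124), and was higher in both siMbnl1/2 libraries than in either control. The call was lost without Dgcr8 KO replicate 2 (adjusted p = 0.0658) and when the 4 libraries were fitted alone (adjusted p = 0.0972), and over all 15 alternatives the adjusted p ran from 0.00714 to 0.0972. Cdkn2b stood next, at 0.64 ± 0.16 with an interval of 0.27 to 1.02 and an adjusted p of 0.0962. Rb1 was at 0.33 (interval 0.09 to 0.57, adjusted p = 0.154) and Rbl2 at -0.37 (interval -0.66 to -0.08, adjusted p = 0.180). The other 6 had intervals that included 0, from -0.44 at the lowest bound to 0.41 at the highest, both among Cdkn2a and Cdkn2d. In 6 of 10 members the siMbnl1/2 and Dgcr8 KO libraries did not overlap, as in 38.7% of all tested genes.

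While siMbnl1/2 against Dgcr8 KO had 1 member called and a median log2 difference of the members of -0.02, siMbnl1/2 against miR-294 had all 10 called. Of these, 9 were higher and Cdkn1c lower with siMbnl1/2. In siMbnl1/2 against miR-294 54% of all tested genes were called, 33% as higher and 21% as lower. No member overlapped, as for 76.7% of all genes. Cdkn1a was 6.44 times as high with siMbnl1/2 as with miR-294 (log2 difference 2.62 ± 0.08, adjusted p = 6.61e-06), the greatest of the 10. Against WT, siMbnl1/2 also had 9 members higher and Cdkn1c lower, where 60.5% of all tested genes were called, 32.8% as higher and 27.7% as lower (4194 and 3540 genes, against 3469 and 3953 with quantile normalization). No member overlapped, as for 80.4% of all genes. The log2 difference was 2.06 for Cdkn1a, 1.97 for Rb1 and 1.36 for Cdkn2b. The call of Cdkn2d as higher than WT (log2 difference 0.47 ± 0.14, adjusted p = 0.0186) was lost in 3 of 15 alternatives, without siMbnl1/2 replicate 2 and without WT replicate 2 among them, with adjusted p from 0.0135 to 0.120.

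Since FPKM is scaled to length, levels can be summed within a family. The Cip/Kip sum was 146 and 142 FPKM with siMbnl1/2, 45.8 and 43.6 FPKM with miR-294, 96.4 and 95.1 FPKM in Dgcr8 KO, and 76.9 and 72.7 FPKM in WT. Its makeup differed as well. Cdkn1a made 77.1% and 74.5% of it with siMbnl1/2, 38.8% and 36.9% with miR-294, 66.7% and 60.0% in Dgcr8 KO, and 33.7% and 34.2% in WT. Cdkn1c made 3.78% and 4.70% with siMbnl1/2, 31.8% and 32.7% with miR-294, 6.59% and 6.43% in Dgcr8 KO, and 47.7% and 44.9% in WT. So the family was led by p21 transcripts in Dgcr8 KO and by p57 transcripts in WT, while with miR-294 the 3 genes were nearer to each other.

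The pocket protein sum was 33.0 and 32.1 FPKM with siMbnl1/2, 14.0 and 13.4 FPKM with miR-294, 32.5 and 34.5 FPKM in Dgcr8 KO, and 14.6 and 13.4 FPKM in WT. The totals were in a high and a low pair of groups, but the shares were not. Rb1 made 44.1% and 42.6% with siMbnl1/2, 38.3% and 33.5% with miR-294, 32.2% and 33.6% in Dgcr8 KO, and 19.2% and 21.5% in WT. In WT Rbl1 held the greatest share, 51.3% and 54.8%. The Ink4 sum ran from 52.8 to 66.4 FPKM with siMbnl1/2, 28.5 to 30.7 FPKM with miR-294, 52.997 to 63.9 FPKM in Dgcr8 KO and 30.7 to 31.9 FPKM in WT, and Cdkn2a was its main part in every library.

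**Figure D4:**
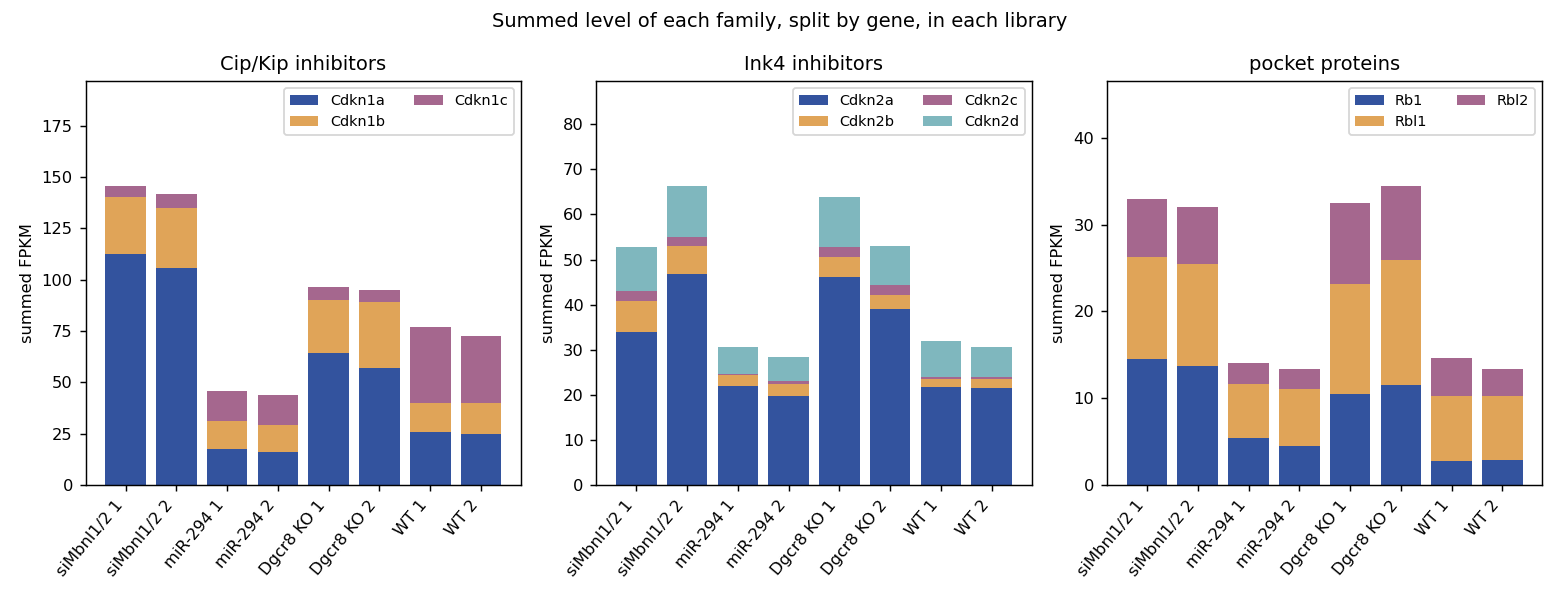
Stacked bars give the summed FPKM of the members of each family in each library, starting at 0, with siMbnl1/2, miR-294, Dgcr8 KO and WT from left to right. The Cip/Kip bars reach 146 FPKM with siMbnl1/2, mostly of Cdkn1a, and the WT bars are led by Cdkn1c.

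The genes on which these inhibitors act were followed as lists chosen by function. Of all tested genes, 29.6% were called higher and 30.1% lower in Dgcr8 KO against WT. In miR-294 against Dgcr8 KO the shares were 22.9% and 29.2%, and in siMbnl1/2 against Dgcr8 KO 0.868% and 0.242%. Counts in this and the other lists are to be read beside these shares. Of 12 G1/S cyclins and kinases, 3 were called higher and 5 lower in Dgcr8 KO against WT, with a median log2 difference of -0.17 beside 0.00 for all tested genes. Ccnd2, a D-type cyclin, averaged 31.0 ± 1.32 FPKM in Dgcr8 KO and 4.80 ± 0.0479 FPKM in WT (log2 difference 2.46 ± 0.08, adjusted p = 1.87e-06). Ccne1, the cyclin E that drives Cdk2, went the other way, with 46.2 ± 1.33 FPKM in Dgcr8 KO and 110 ± 1.69 FPKM in WT (log2 difference -1.23 ± 0.07, adjusted p = 1.03e-05). With miR-294, 3 of the 12 were higher and 4 lower than in Dgcr8 KO (median -0.01); Ccne1 averaged 107 ± 3.98 FPKM (log2 difference 1.19 ± 0.07, adjusted p = 4.07e-05), and Ccnd1 was 0.584 times its Dgcr8 KO level (log2 difference -0.75 ± 0.10, adjusted p = 6.13e-04). Under quantile normalization the median of this list in Dgcr8 KO against WT was 0.01, and under median-of-ratios scaling its median in miR-294 against Dgcr8 KO was 0.05, against -0.15 under quantile normalization.

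Of 10 E2F factors and Dp partners, 4 were higher and 4 lower in Dgcr8 KO than in WT (median 0.02, or -0.03 after quantile normalization). The shares of all tested genes called higher and lower were 29.6% and 30.1% there, and 22.9% and 29.2% in miR-294 against Dgcr8 KO. E2f4, the main repressive partner of p107 and p130, averaged 46.1 ± 2.66 FPKM in Dgcr8 KO and 110 ± 5.52 FPKM in WT (log2 difference -1.23 ± 0.07, adjusted p = 1.13e-05), and its dimer partner Tfdp1 was also lower (log2 difference -1.03 ± 0.06). In miR-294 against Dgcr8 KO 3 were higher and 5 lower (median -0.24): E2f4 was at 87.5 ± 1.12 FPKM (log2 difference 0.91 ± 0.07, adjusted p = 8.38e-05), and E2f7, an atypical repressor, was lower (log2 difference -0.77 ± 0.09). Of 7 MuvB and DREAM subunits, which join p130 or p107 in repression, 3 were higher and 2 lower in Dgcr8 KO than in WT (median 0.21), and 2 higher and 3 lower with miR-294 than in Dgcr8 KO (median -0.27). With quantile normalization 2 of the 7 were higher and 1 lower in Dgcr8 KO than in WT, and 1 higher and 3 lower with miR-294 than in Dgcr8 KO, there with a median of -0.09; of the 10 E2F and Dp genes, 2 were then higher and 3 lower with miR-294 (median -0.12). Mybl2, which replaces the pocket proteins on MuvB in cycling cells, averaged 138 ± 14.8 FPKM in Dgcr8 KO and 301 ± 2.51 FPKM in WT, and 228 ± 0.977 FPKM with miR-294. Lin52, the subunit through which p130 binds, was 1.42 times WT in Dgcr8 KO, a call lost in 1 of 15 alternatives (adjusted p from 0.00372 to 0.0759), and with miR-294 was 0.531 times Dgcr8 KO.

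Of all tested genes, 30.1% were called lower and 29.6% higher in Dgcr8 KO against WT, and 29.2% lower and 22.9% higher in miR-294 against Dgcr8 KO. Of 18 E2F target genes, 12 were lower and 3 higher in Dgcr8 KO than in WT, with a median log2 difference of -0.33. Mcm5, a part of the replicative helicase, averaged 107 ± 7.70 FPKM in Dgcr8 KO and 245 ± 8.77 FPKM in WT (log2 difference -1.19 ± 0.07, adjusted p = 1.27e-05), while the higher ones were Mcm7, Rrm1 and Pola1, the last without its call when WT replicate 1 was left out (adjusted p = 0.0523, the highest of 15 alternatives from 0.00527). With miR-294, 9 were higher and 2 lower than in Dgcr8 KO, with a median of 0.24; Mcm5 was at 172 ± 5.17 FPKM (log2 difference 0.68 ± 0.07). The counts moved with the scaling. Under quantile normalization they were 8 lower and 4 higher and the median was -0.04 in Dgcr8 KO against WT, and 4 higher and 4 lower and the median 0.05 in miR-294 against Dgcr8 KO. Under median-of-ratios scaling they were 11 lower and 3 higher (median -0.32) in Dgcr8 KO against WT. In miR-294 against Dgcr8 KO they were then 11 higher and 2 lower (median 0.29). In siMbnl1/2 against Dgcr8 KO limma called 0 of the 18, with 8 at an unadjusted p under 0.05 and a median of -0.19. With median-of-ratios scaling 1 of the 18 was called lower (median -0.24), and with quantile normalization also 1 (median -0.23). Without these scalings limma called 0 of the 10 E2F and Dp genes, with 4 at that p, and 0 of the 7 MuvB and DREAM subunits, with 1.

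**Figure D5:**
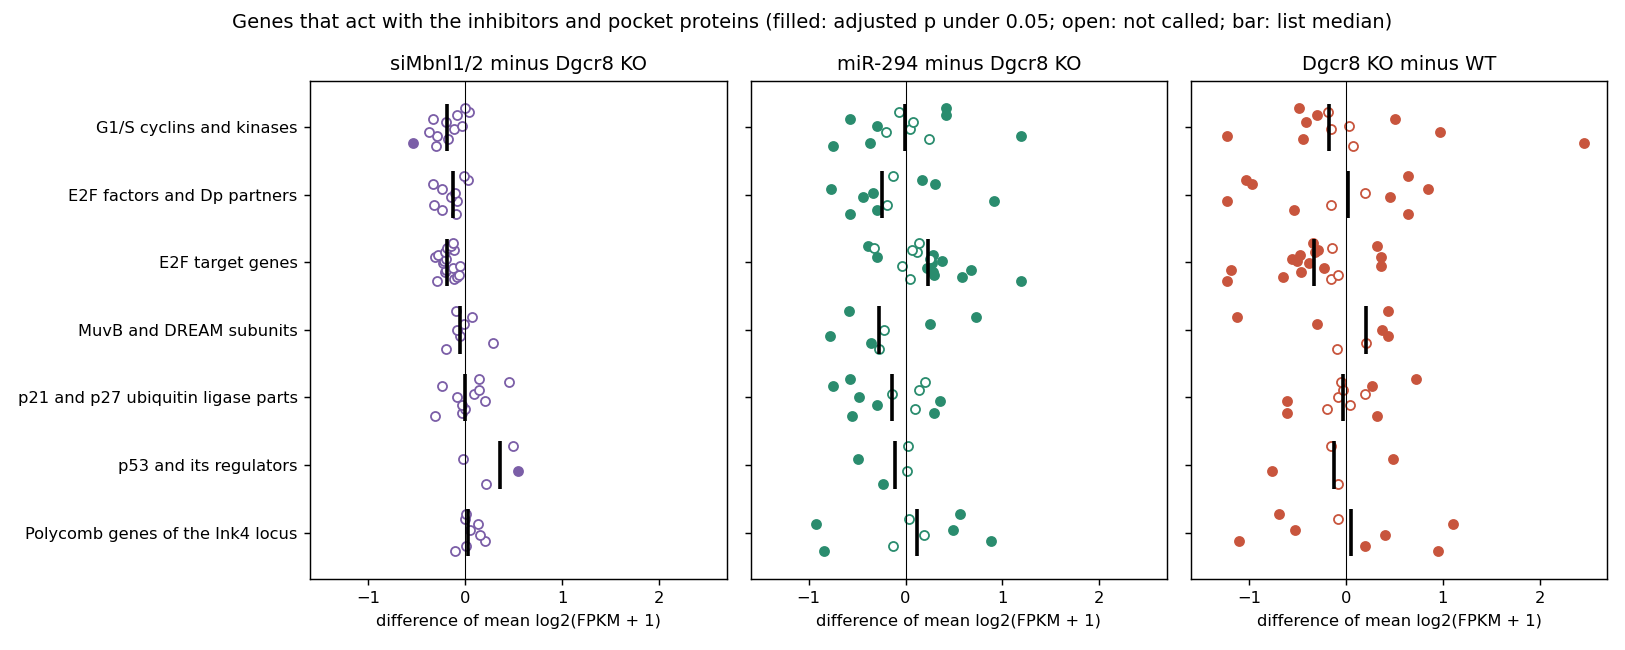
Points are log2 differences of the genes in each list, 1 row per list, in a panel for each comparison, with filled points for called genes and a bar at the list's median. The E2F target genes lie mostly below 0 in Dgcr8 KO minus WT, with a median of -0.33, and mostly above 0 in miR-294 minus Dgcr8 KO, with a median of 0.24.

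The shares of all tested genes called higher and lower were 29.6% and 30.1% in Dgcr8 KO against WT. They were 22.9% and 29.2% in miR-294 against Dgcr8 KO. The p53 list bears on Cdkn1a, which p53 activates. Of its 5 genes 4 were tested; 1 was higher and 1 lower in Dgcr8 KO than in WT (median -0.12), and 2 were lower with miR-294 than in Dgcr8 KO (median -0.11, or -0.28 with quantile normalization). Trp53 itself was not called in Dgcr8 KO against WT and averaged 158 ± 1.91 FPKM with miR-294 and 186 ± 10.97 FPKM in Dgcr8 KO (log2 difference -0.23 ± 0.06, adjusted p = 0.0148). That call was lost without either miR-294 library, and over all 15 alternatives the adjusted p ran from 5.02e-04 to 0.0965. Mdm2, the ligase that degrades p53 and is itself a p53 target, averaged 50.9 ± 0.905 FPKM in Dgcr8 KO and 87.2 ± 1.05 FPKM in WT (log2 difference -0.77 ± 0.08, adjusted p = 1.72e-04), opposite in direction to Cdkn1a. Mdm4, its partner in holding p53 down, was higher in Dgcr8 KO than in WT (log2 difference 0.48 ± 0.06) and lower with miR-294 than in Dgcr8 KO (log2 difference -0.49 ± 0.06). With siMbnl1/2, Mdm2 averaged 74.7 ± 6.59 FPKM against 50.9 ± 0.905 FPKM in Dgcr8 KO (log2 difference 0.54, adjusted p = 0.0378); this call was lost in 12 of 15 alternatives, with adjusted p from 0.0109 to 0.244. Ccnd2 was the other gene of all these lists called with siMbnl1/2 (log2 difference -0.54, adjusted p = 0.0366), and its call was lost in 9 of 15 (adjusted p from 0.0277 to 0.280).

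A list of 11 ubiquitin ligase parts was drawn up around the degradation of p21 and p27. Not all of them, Fbxw7 for one, are parts of the ligases that degrade these proteins. Beside this list and the next, 29.6% of all tested genes were called higher and 30.1% lower in Dgcr8 KO against WT. In miR-294 against Dgcr8 KO the shares were 22.9% and 29.2%. Of the 11, 3 were higher and 2 lower in Dgcr8 KO than in WT (median -0.03). After quantile normalization 5 were higher, with a median of 0.24. Rnf123, a ligase part that acts on p27 in G1, was 1.81 times WT in Dgcr8 KO (log2 difference 0.72 ± 0.16, adjusted p = 0.00656), and Rbx1, the common RING subunit, was 0.650 times WT. With miR-294, 2 were higher and 5 lower than in Dgcr8 KO (median -0.14), among them Rnf123 (log2 difference -0.58 ± 0.16) and Dtl (log2 difference -0.75 ± 0.07), the substrate receptor that takes p21 in S phase. The list median there was -0.34 with quantile normalization and -0.08 with median-of-ratios scaling. The Rnf123 call with miR-294 was lost in 4 of 15 alternatives, without miR-294 replicate 2 and without Dgcr8 KO replicate 1 among them, with adjusted p from 0.0172 to 0.124. Of 8 Polycomb genes, whose products are known to silence the Ink4 locus, 4 were higher in Dgcr8 KO than in WT (Bmi1, Ezh2, Suz12 and Cbx8) and 3 lower (Eed, Cbx7 and Pcgf2), with a median of 0.06. With quantile normalization 4 were higher and 2 lower, with a median of 0.27. The Ezh2 call was lost in 5 of 15 alternatives, without either WT library, either miR-294 library or Dgcr8 KO replicate 2 (adjusted p from 0.00125 to 0.142), the Suz12 call in 3, without either WT library or Dgcr8 KO replicate 2 (0.00375 to 0.0955), and the Cbx7 call in 1 (0.00075 to 0.0631). Eed averaged 78.0 ± 5.50 FPKM in Dgcr8 KO and 168 ± 3.95 FPKM in WT, and 145 ± 3.19 FPKM with miR-294. Cbx8 averaged 2.03 ± 0.194 FPKM in Dgcr8 KO and 0.409 ± 0.200 FPKM in WT. With miR-294 it was at 0.603 ± 0.271 FPKM (log2 difference -0.93 ± 0.18 against Dgcr8 KO). The part of the Polycomb genes in the Ink4 levels was not tested. In miR-294 against Dgcr8 KO, 3 of the 8 were higher and 2 lower (median 0.12, or -0.02 after quantile normalization). In siMbnl1/2 against Dgcr8 KO limma called 0 of the 8, with 0 at an unadjusted p under 0.05, and 0 of the 11 ligase parts, with 4.

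The promoters of the members, which moved together in 9 of 10 cases, were read for the E2F letters TTTCGCGC, TTTGGCGC and TTTCCCGC on both strands, in the 250 bases before and 50 after each start in RefSeq on GRCm38.p6. Any of the 3 was in 1.84% of 32851 promoters. The table gave 11 promoters for 8 members and none for Cdkn1c and Rb1, and 2 of the 11 held a match. They are shown, sense to the gene on the minus strand, with the match in capitals.
Rbl1, chr2:157204515-157204582: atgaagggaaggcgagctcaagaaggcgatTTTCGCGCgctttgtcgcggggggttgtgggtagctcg
Cdkn2a, chr4:89294681-89294748: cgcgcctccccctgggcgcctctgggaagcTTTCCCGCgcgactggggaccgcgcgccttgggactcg
The Rbl1 match starts 18 bases before the start and the Cdkn2a match 99 bases before 1 of its 2 starts. The exact letters TTTCGCGC were in 0.323% of promoters and TTTCCCGC in 1.07%. Rbl1, an E2F target by background, was higher in Dgcr8 KO than in WT, where 12 of the 18 listed E2F targets were called lower and 3 higher. It was lower with miR-294 than in Dgcr8 KO, where 9 of the 18 were called higher and 2 lower. Under quantile normalization the list had 8 lower and 4 higher in the first comparison, and 4 higher and 4 lower in the second. With median-of-ratios scaling it had 11 lower and 3 higher in the first, and 11 higher and 2 lower in the second. No binding was measured, and the part of E2F factors in the level of Rbl1 was not tested.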

How the data were processed

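Per the labels, total RNA was made into dUTP libraries, a protocol that keeps strand. The authors deposited 1 table of FPKM values for 8 libraries; mm10, STAR 2.5.0 and Cufflinks 2.2.1 are listed in the submitters' processing notes. How strand and multi-mapped reads were counted is not given in the sources used here. FPKM holds no counts, so a count model was not used. Values were taken as log2(FPKM + 1), genes with a mean of at least 1 FPKM were kept (12786 of 49641), and 4 group means were fitted over all 8 libraries with limma 3.58.1 and statmod 1.5.0 in R 4.3.3 (trended, robust empirical Bayes), with Benjamini-Hochberg adjustment and a threshold of 0.05. The deposited values were not log2 values; the log2 scale was computed from them. The fit was tested on simulated data. The members and lists were chosen with earlier results of these data known. All 10 members are named. Of each other list the called genes with the greatest difference are named, up to 2 in Dgcr8 KO against WT and 2 in miR-294 against Dgcr8 KO. Dgcr8, Mbnl1 and Mbnl2 are named, as are the 3 genes most correlated with Cdkn1a after the exclusion by name given below. Other names (Lpar6, Dab2, the E2F targets and Polycomb genes listed by direction, and genes called with siMbnl1/2) were chosen after their values were seen. For 2 members, Cdkn1a and Cdkn2b, the M21 annotation used for UTRs has another gene version than the table. Alternatives were a pseudocount of 0.1, no filter, median-of-ratios and quantile scaling, the libraries of a comparison alone, no trend, a replicate block, and each library left out.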

Additional observations from a re-analysis of the deposited data

How the results depend on the processing

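For the 60 member results (10 genes in 6 comparisons), 857 of 900 alternative values kept direction and side of the threshold, 29 lost the call, 1 gained it and 13 changed sign; 48 results held in all 15 alternatives. In siMbnl1/2 against Dgcr8 KO, where 142 genes were called, 61 were called with no filter on low values, 4 when just its own libraries were fitted, 33 with the replicate block and 15 (without Dgcr8 KO replicate 2) to 650 (without siMbnl1/2 replicate 2) with a library left out. The 1 member called there became 0 with its own libraries alone and 0 to 1 with a library left out; where it was 0, 4 had an unadjusted p under 0.05. In miR-294 against WT, 3390 genes were called, against 6311 with its own libraries alone and 1242 to 4578 with a library left out. With the replicate block the members called were 9 in place of 10 both in Dgcr8 KO against WT and in miR-294 against Dgcr8 KO, and as many as without it in the other 4 comparisons; the same-numbered libraries did not deviate together (r from -0.0495 to 0.191 between groups), so the numbers were not taken as pairs. The split of higher and lower calls moved with scaling: siMbnl1/2 against Dgcr8 KO 111 and 31, with median-of-ratios 97 and 75 and with quantile 117 and 88; siMbnl1/2 against miR-294 4217 and 2685, 3477 and 3461, 3131 and 3382; miR-294 against WT 1508 and 1882, 2019 and 1536, 1607 and 1526; miR-294 against Dgcr8 KO 2934 and 3737, 3422 and 3418, 3279 and 3124; siMbnl1/2 against WT 4194 and 3540, 4003 and 3928, 3469 and 3953. Signs changed as follows. In Dgcr8 KO against WT, Rbbp4 and Mcm6, called lower, were at 0.037 and 0.058 under quantile normalization. In siMbnl1/2 against Dgcr8 KO, Cdkn1b was at -0.050 with median-of-ratios, -0.033 with quantile and -0.15 to 0.15 with a library left out; with a library left out Cdkn1c ran from -0.15 to 0.084, Cdkn2a from -0.31 to 0.14 and Cdkn2d from -0.056 to 0.25. In miR-294 against WT, Cdkn2a was at 0.012 with median-of-ratios, 0.0013 with quantile and -0.13 to 0.024 with a library left out, and Cdkn2c at -0.086 with quantile. None of these member values was called, and the cause was not tested. Leaving out 1 library leaves a group with 1, assumed to vary like the others. Without counts, no interval from depth can be given.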

Other observations

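Genes with Gm, LOC, Rik, Mir, Snor or RP clone names were left out before a ranking by Pearson r to Cdkn1a. Of the other tested genes, the 3 with the highest r over the 8 libraries, on log2(FPKM + 1), were Klhl42 at 0.996, Rcan1 at 0.996 and Tap1 at 0.995. The 8 points fall into 4 groups of replicates, and the values are a description. Klhl42, a substrate adaptor of a cullin ligase, averaged 8.21 ± 0.371 FPKM with siMbnl1/2, 3.33 ± 0.147 FPKM with miR-294, 5.90 ± 0.340 FPKM in Dgcr8 KO and 3.82 ± 0.102 FPKM in WT (SD, n = 2 each). Rcan1, an inhibitor of calcineurin, averaged 16.8 ± 0.235 FPKM with siMbnl1/2, 6.97 ± 0.458 FPKM with miR-294, 13.1 ± 1.197 FPKM in Dgcr8 KO and 8.74 ± 0.169 FPKM in WT. Tap1, a peptide transporter of antigen presentation, averaged 6.32 ± 0.481 FPKM with siMbnl1/2, 1.25 ± 0.0630 FPKM with miR-294, 4.18 ± 0.798 FPKM in Dgcr8 KO and 2.03 ± 0.0577 FPKM in WT. Each had its highest mean with siMbnl1/2 and its lowest with miR-294, as Cdkn1a did.

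The second entry with the symbol Rb1, at chr14:73238546-73239786, averaged 0.0748 FPKM over the 8 libraries and was listed at 0 in both siMbnl1/2 and both WT libraries.

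Markers of other cell types were present at unequal levels. The summed level of 10 fibroblast markers, which feeder cells would bring, was 3.24 to 3.67 FPKM with siMbnl1/2, 5.33 to 5.78 FPKM with miR-294, 2.97 to 2.99 FPKM in Dgcr8 KO and 4.04 to 4.86 FPKM in WT, with Postn listed at 0 in the siMbnl1/2, miR-294 and Dgcr8 KO libraries and Lum in the Dgcr8 KO and WT libraries. The sum of 5 neuroectoderm markers was 33.6 to 40.7 FPKM with siMbnl1/2, 38.6 to 38.7 FPKM with miR-294, 39.8 to 42.3 FPKM in Dgcr8 KO and 49.2 to 49.4 FPKM in WT, with Tubb3 as its main part. Single markers differed from the sum. Pax6 averaged 5.76 FPKM with siMbnl1/2, 3.97 FPKM with miR-294, 9.71 FPKM in Dgcr8 KO and 1.57 FPKM in WT, and Sox1 averaged 5.25 FPKM with siMbnl1/2, 3.34 FPKM with miR-294, 8.49 FPKM in Dgcr8 KO and 7.58 FPKM in WT. Tubb3 averaged 22.6 FPKM with siMbnl1/2, 28.3 FPKM with miR-294, 18.9 FPKM in Dgcr8 KO and 36.5 FPKM in WT. The sum of 5 mesoderm markers was at most 1.49 FPKM in any library. The part of these in the member levels was not tested.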
